A study of Rosa hybrid cultivar with 12 samples.

Results

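In these rose bud libraries, 470 of the 42307 listed genes were read mainly on the opposite strand. The deposited tables counted every library on both strands, and nearly all genes collected their reads in the reverse-strand column. The 470 genes were chosen by their counts summed over the 12 libraries. Each had at least 1000 counts in the forward-strand column and at least as many there as in the reverse-strand column. The forward and reverse sums therefore chose these genes and are given as a description, without a test. The sums do not use the treatment groups, so differences between groups were tested. A gene that reached 1000 counts only through a far higher level in 1 group had to differ between groups. Without their highest group, 101 members held under 1000 forward counts. A gene with a sum little above 1000 does so even when its groups are alike. RC2G0503300, for example, had 1269 forward counts, 27.1% of them in its highest group. Over 50% of the forward counts lay in a single group in 13 members, and in a single library in 1.

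In a strand-specific library, the chemistry keeps a record of which DNA strand a transcript came from. For a gene whose annotated strand is right, nearly all reads then fall in a single column, and reads in the other column come from transcripts of the opposite strand. Such reads can belong to a neighbouring gene that overlaps on the other strand, to an antisense RNA with no gene of its own in the annotation, or to a gene whose strand is annotated the wrong way round. Incomplete strand marking leaves a low level in the wrong column for every expressed gene. Antisense RNAs are widespread in plants, and some are known to act on the gene they overlap, as at the flowering gene FLC of Arabidopsis. The tables give gene IDs only, paired with no name, sequence or position, so no function or strand could be attached to a member and the tissue could not be checked against marker genes.

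The samples came from a wild-type rose, a hybrid cultivar grown in a greenhouse and climatic chamber. The labels give flower bud as the tissue, while the series title speaks of budburst, and the term bud is used here. Sucrose at 10 or 100 mM was crossed with the presence or absence of NAA, a synthetic auxin, at 1 µM. The 4 groups were 10 mM sucrose, 10 mM sucrose with NAA, 100 mM sucrose, and 100 mM sucrose with NAA, with 3 libraries each, numbered by harvest in June, August and October. Planting dates differed between groups for the June harvest, and all 4 groups shared the same date within the August and within the October harvest. Some planting dates lie after the harvest date as written. Nothing in the labels says how many buds or plants made up a library.

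Reverse-strand gene counts ranged from 7369267 to 16757019 per library and forward-strand gene counts from 320894 to 689735, so that 3.37% to 5.00% of the counts on both strands were forward. Levels below are CPM, in which every count is divided by its library's TMM-scaled total of reverse-strand gene counts, and are given for the June, August and October library in that order. The June library of 10 mM sucrose with NAA stood apart. It was the shallowest, and its TMM factor was 0.746, against 0.976 to 1.10 in the others. The forward counts of the 470 members summed to 62815 CPM in it and to between 28214 and 37051 CPM in the other 11. The low TMM factor raises the CPM of every gene there: all reverse counts summed to 1341000 CPM, against 905540 to 1024400 CPM in the other 11. As a share of the counts on both strands, the members' forward counts were 4.45% in that library and 2.79% to 3.73% in the others. By group, the summed level was 32399 ± 1191 CPM in 10 mM sucrose, 43979 ± 16325 with NAA added, 30622 ± 2483 in 100 mM sucrose and 33434 ± 3139 with NAA added (SD, n = 3 each). The part of that library's excess in the results was not tested, and values without it stand beside the counts and genes below that it moved.

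The members held 5023805 of the 5819177 forward counts of all genes, or 86.3%. Forward reads were thus gathered in a small set of genes. Among genes with at least 1000 counts on both strands together, the median member had 99.8% of its counts in the forward column, and the median of the other 14321 genes was 0.143%. Of the members, 385 had at least 99% forward counts, and 450 had at least 90%. The remaining 20 had mixed reads, 6 of them under 60% forward. Seen from the other side, the median member had 0.188% of its counts in the reverse column, a minor share similar in size to that of the other genes in the forward column. In 462 members the forward count exceeded the reverse count in each of the 12 libraries.

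**Figure D1:**
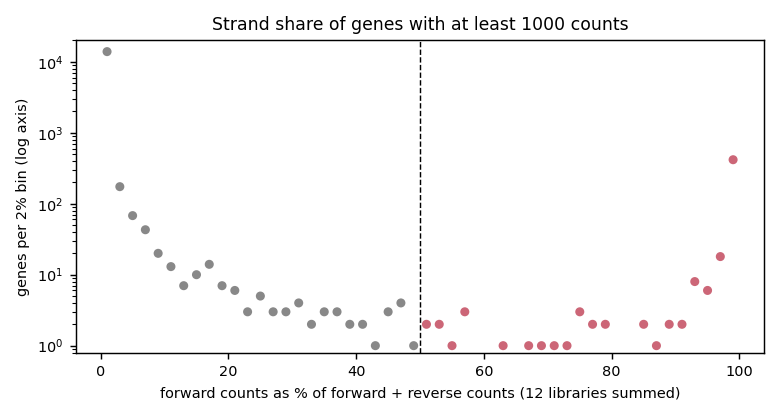
Number of genes (log axis) per 2% bin of the forward share of counts, for the genes with at least 1000 counts on both strands together, with the dashed line at 50%. Genes pile up at both ends, with members on the right at a median of 99.8% forward and the other genes on the left at a median of 0.143%, and few lie between.

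Few genes lay close to the strand limit, but more lay close to the limit on counts. Just inside the strand limit were RC4G0340300, with 3383 forward and 3161 reverse counts, and RC4G0480900, with 1270 and 1093. Just outside were RC4G0178200, with 4398 forward and 4942 reverse counts, and RC5G0734000, with 2762 and 3139. At the limit on counts, RC0G0180000 with 1002 and RC5G0109500 with 1005 forward counts were inside, and RC1G0378300 and RC6G0421600 with 991 each were outside. Another 41 genes had at least 1000 forward counts but more reverse counts. The median member had 3073.5 forward counts, 74 had at least 10000 and 160 had under 2000. The members' reverse sums were low: the median was 8, 416 members had under 100 counts, and 37 had 0, which allows up to 3 counts by counting error.

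Most of these reads did not lie on another counted gene. A read that hits a counted gene on each strand is ambiguous when strand is ignored, so the forward and reverse counts together exceed the strand-ignored count by the number of such reads. For 237 members this number was 0, and for 313 it was under 100. Over all members, between 2.53% and 2.66% of the forward counts lay in such overlaps. Of the 470, 450 had most of their forward reads outside any counted gene on the other strand, 18 had most inside, and 2 could not be settled between their lower and upper bounds.

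The gene on the other strand could be named for 125 of the 157 members with at least 100 overlap reads. It was taken as the gene whose own overlap reads matched the member's within 5% over the 12 libraries. In 117 cases it was the ID directly before or after the member in the list, and in the other 8 it was at most 6 IDs away. In 85 pairs the overlap reads were equal in number. None of the 125 genes was itself a member. The share of such a member's forward counts in the overlap is known between bounds. The lower bound had a median of 15.8% and a range of 0% to 94.0%, and the upper bound a median of 16.3% and a range of 1.24% to 95.3%.

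RC3G0208400 was the most counted member whose forward reads lay almost entirely on its partner. It had 19862 forward counts, at least 94.0% of them inside the overlap, and 18680 overlap reads against 18681 in RC3G0208500. That partner had 138479 counts on its own strand. Forward levels of RC3G0208400 were 165, 103 and 129 CPM in 10 mM sucrose, 440.2, 99.5 and 142 CPM with NAA added, 146, 115 and 129 CPM in 100 mM sucrose, and 167, 74.3 and 117 CPM with NAA added. The June library of 10 mM sucrose with NAA was the highest, and the groups overlapped. The reverse counts of RC3G0208500 were highest in that library too, at 2061 CPM against at most 1215 CPM in any other. With NAA the log2 fold changes were 0.33 in the member and 0.25 in the partner's reverse counts. With sucrose they were -0.47 and -0.42, and none passed.

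The members' forward counts were concentrated in few genes: 10 members held 47.5% of them and 3 held 33.1%. Counts are not divided by gene length, which the tables do not give, so they rank reads and not transcripts. RC2G0517200 had 748296 forward and 851 reverse counts, and its forward sum would take place 3 among the reverse sums of all genes. RC6G0274700 had 487328 and 1141 counts, which would take place 8, and RC4G0043300 had 425935 and 5322, which would take place 9. The next were RC1G0518400 with 149334 forward counts, RC4G0043500 with 133651 and RC7G0238900 with 133127. RC1G0487500 had 86124, RC6G0206700 82938, RC4G0043600 76439 and RC2G0210100 61933. Counts of this size belong to the most heavily read genes of the bud, yet the reverse column alone lists these 10 genes with 47 to 5322 counts.

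RC2G0517200 had the most forward counts of any gene. Its forward levels were 5492, 5470.4 and 4808 CPM in 10 mM sucrose and 10345, 3348 and 5049 CPM with NAA added. They were 4619, 4176 and 4819 CPM in 100 mM sucrose and 6328, 4834 and 4826 CPM with NAA added. The August and June libraries of 10 mM sucrose with NAA were the lowest and the highest of all 12, so this group spanned the others. The log2 fold change with NAA, averaged over the sucrose doses, was 0.24 (SE 0.286, edgeR adjusted p = 0.692). Without the June library of 10 mM sucrose with NAA it was -0.04.

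RC6G0274700 varied less. Forward levels were 2711, 3384 and 3621 CPM in 10 mM sucrose, 3884, 3463 and 3690.1 CPM with NAA added, 2617, 2941 and 2831 CPM in 100 mM sucrose, and 3229, 3173 and 3294 CPM with NAA added. At 100 mM sucrose the 3 NAA libraries were above the 3 without, while at 10 mM they overlapped. Its log2 fold change with NAA was 0.20 (SE 0.201, edgeR adjusted p = 0.633) and with 100 mM sucrose -0.20 (SE 0.201, adjusted p = 0.656), and neither passed.

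In several of the 10 the June library of 10 mM sucrose with NAA was the highest by a wide margin. RC1G0487500 was at 353, 456 and 295 CPM in 10 mM sucrose, 2780.0, 753 and 540.3 CPM with NAA added, 388, 379 and 327 CPM in 100 mM sucrose, and 719, 752 and 336 CPM with NAA added. Its log2 fold change with NAA was 1.30 (SE 0.379, edgeR adjusted p = 0.0579), which missed the threshold, and 0.78 without that library. With harvest date as a block the value was 1.13 and passed (adjusted p = 0.0409), and it also passed with DESeq2 (adjusted p = 0.0103). RC1G0518400 was at 955, 1054 and 731 CPM in 10 mM sucrose, 3211, 1241 and 1220.1 CPM with NAA added, 654, 546 and 679 CPM in 100 mM sucrose, and 1258, 826 and 762 CPM with NAA added. Its log2 fold change with NAA of 0.82 (SE 0.282) also missed the threshold (edgeR adjusted p = 0.0968), and it was 0.53 without that library. It passed with DESeq2 (adjusted p = 0.0323), without the filter on low counts (adjusted p = 0.0344) and with strand ignored (adjusted p = 0.0353). RC6G0206700 reached 1574 CPM and RC2G0210100 1609.8 CPM in that same library, against at most 1004 and 556 CPM in the other 11. Without it, their log2 fold changes with NAA went from -0.06 to -0.61 and from 0.46 to 0.0068, none of them called.

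RC7G0238900 was widest within 1 group, at 1847, 116 and 492 CPM in 10 mM sucrose with NAA. It was at 1213, 810.1 and 900.4 CPM in 10 mM sucrose, 1416, 968 and 1783 CPM in 100 mM sucrose, and 1144, 674 and 907 CPM in 100 mM sucrose with NAA. Its log2 fold change with NAA was -0.43, and -1.14 without the June library of 10 mM sucrose with NAA, where it missed the threshold (edgeR adjusted p = 0.053). Of the 10 most counted members, RC4G0043500 and RC4G0043600 passed the edgeR test for NAA, and none passed for sucrose.

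**Figure D2:**
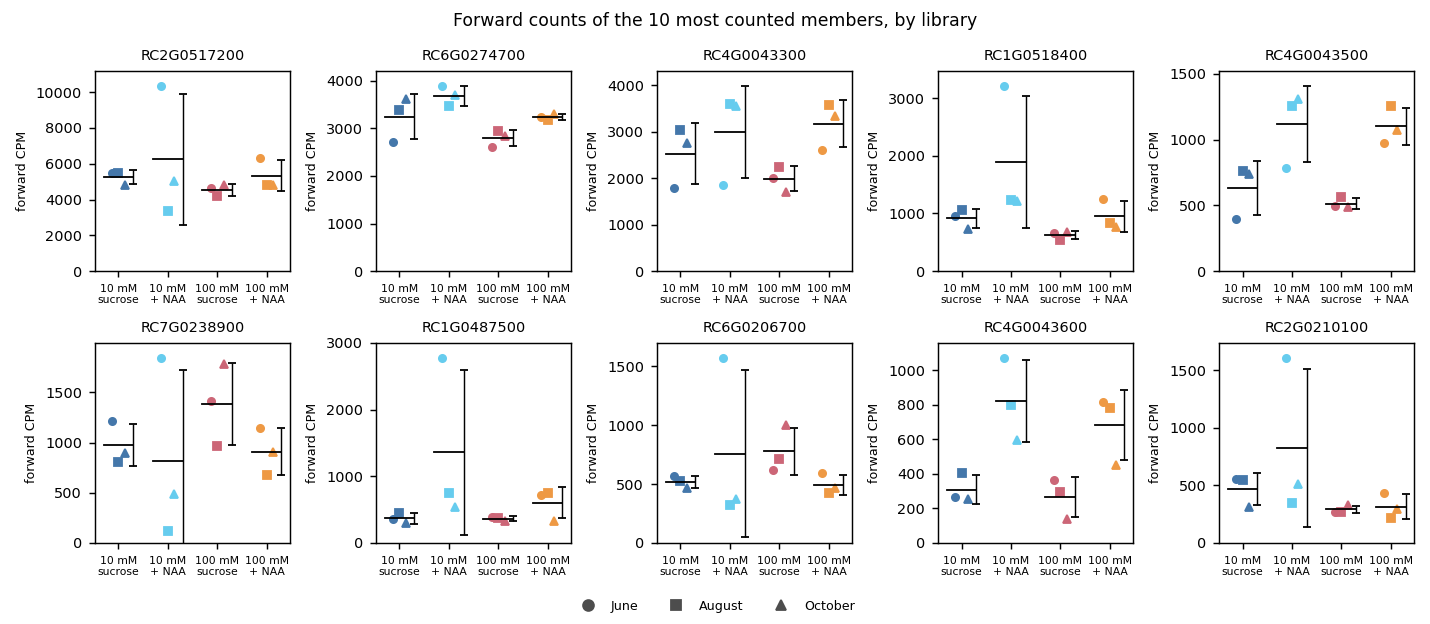
Forward counts (CPM) of the 10 most counted members in each of the 12 libraries, by group, with marker shapes for the harvest date, horizontal lines for group means and bars for ± 1 SD (n = 3). In RC2G0517200, RC6G0274700, RC1G0518400, RC7G0238900, RC1G0487500, RC6G0206700, RC4G0043600 and RC2G0210100 the June library of 10 mM sucrose with NAA is the highest of all 12. RC4G0043500 and RC4G0043600 are higher with NAA at both doses.

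Of the 10 genes, 3 have IDs within a run of 5 consecutive IDs. RC4G0043200, RC4G0043300, RC4G0043500 and RC4G0043600 are members, with 17661, 425935, 133651 and 76439 forward counts. RC4G0043400, between them, is not a member and was chosen after its values were seen: it had 143237 reverse and 1551 forward counts. The run thus holds heavily read genes in both columns. Overlap reads were 637 in RC4G0043400 and 606 in RC4G0043500, few beside their counts.

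Both later members of the run rose with NAA. RC4G0043500 was at 393, 758 and 739 CPM in 10 mM sucrose and 785, 1259 and 1311 CPM with NAA added. At 100 mM sucrose it was at 492, 560.4 and 485 CPM, and 976, 1253 and 1070.2 CPM with NAA added. All 6 NAA libraries lay above all 6 without NAA, with a log2 fold change of 0.96 (SE 0.23, edgeR adjusted p = 0.0313). Leaving out any 1 of 8 of the 12 libraries ended the call, at adjusted p between 0.0547 and 0.0913.

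RC4G0043600 was at 265, 406 and 253 CPM in 10 mM sucrose and 1071, 795 and 597 CPM with NAA added. At 100 mM sucrose it was at 365, 294 and 141 CPM, and 816, 783 and 450.4 CPM with NAA added. Here too the 6 NAA libraries lay above the 6 others, with a log2 fold change of 1.39 (SE 0.284, edgeR adjusted p = 0.0192). Without the June or the October library of 10 mM sucrose the adjusted p was 0.0567 or 0.0595.

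The reverse counts of RC4G0043400 also rose with NAA, by 1.06 on the log2 scale (SE 0.2, edgeR adjusted p = 0.00424). They were 428, 921 and 869.6 CPM in 10 mM sucrose, 1185, 1593 and 1506 CPM with NAA added, 458, 529 and 355 CPM in 100 mM sucrose, and 959, 1143 and 904 CPM with NAA added. Their log2 fold change with sucrose was -0.62 (adjusted p = 0.0637), and -0.59 with harvest date as a block, which passed (edgeR adjusted p = 0.0325). The October NAA library at 100 mM lay just below the August library of 10 mM sucrose, and otherwise the groups with and without NAA were separate. RC4G0043300 had a log2 fold change of 0.46 (SE 0.251, adjusted p = 0.317), and RC4G0043200 of -0.26 (SE 0.19, adjusted p = 0.475), so neither of these members passed in edgeR. RC4G0043300 was at 1793, 3033 and 2763 CPM in 10 mM sucrose, 1863, 3594 and 3546 CPM with NAA added, 2014, 2245 and 1706 CPM in 100 mM sucrose, and 2606, 3569.9 and 3348 CPM with NAA added. RC4G0043200 was lower throughout, between 78.7 and 197 CPM.

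**Figure D3:**
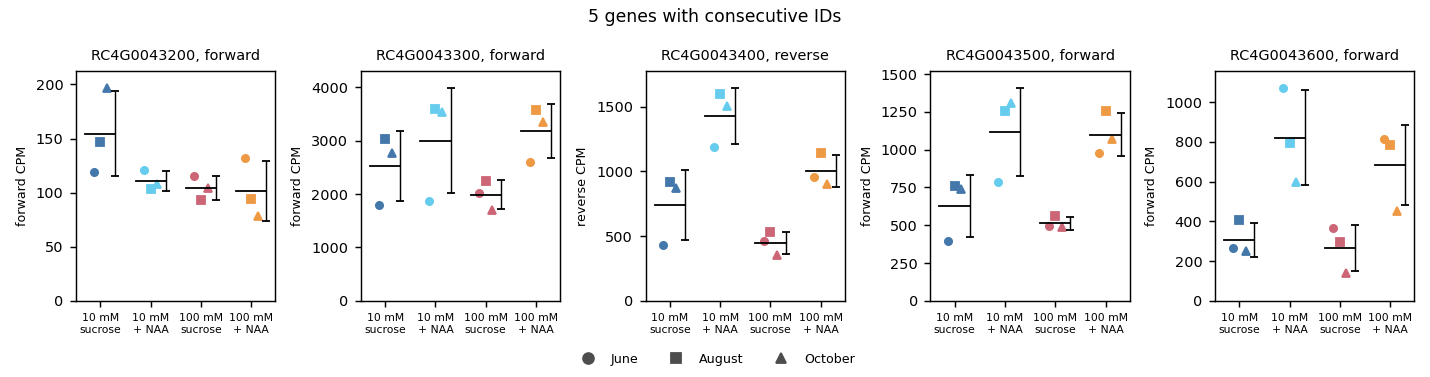
Levels (CPM) of 5 genes with consecutive IDs in each of the 12 libraries, forward counts for the 4 members and reverse counts for RC4G0043400, with marker shapes for harvest date, lines for group means and bars for ± 1 SD (n = 3). RC4G0043400, RC4G0043500 and RC4G0043600 are higher with NAA at both sucrose doses, with log2 fold changes of 1.06, 0.96 and 1.39, and RC4G0043200 and RC4G0043300 did not pass.

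With NAA, 44 members rose and 16 fell, averaged over the sucrose doses. The forward fit tested 2252 genes, and all 470 members passed its filter on low counts. In it, 6.84% of the tested genes were called, 4.66% upward and 2.18% downward, and of the members 12.8% were called. The members had a median of 3073.5 forward counts and the other 1782 tested genes a median of 168, so the tested genes differ in depth as well. The median log2 fold change of the members was 0.12, against 0.03 over all genes tested.

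The calls depended on single libraries. Leaving out the June, August or October library of 10 mM sucrose left 18, 38 or 11 called members, and of 10 mM sucrose with NAA 70, 28 or 76. For 100 mM sucrose the numbers were 17, 18 or 13, and for 100 mM sucrose with NAA 15, 31 or 69. Over all tested genes these fits called between 34 and 193. Without the June library of 10 mM sucrose with NAA, which stood apart, 41 members rose and 29 fell, where 91 and 66 of 2685 tested genes did. The members' median log2 fold change was then 0.04. With harvest date as a block, 68 rose and 41 fell where 11.3% of all tested genes were called, 6.93% upward and 4.4% downward, and the 44 and the 16 remained called.

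RC2G0454500 rose the most with NAA. Its forward levels were 16.0, 29.6 and 5.45 CPM in 10 mM sucrose and 247, 227 and 84.1 CPM with NAA added. At 100 mM sucrose they were 0.659, 0.809 and 1.37 CPM, and 70.1, 27.8 and 7.45 CPM with NAA added. At each dose the NAA libraries lay above those without, although the October NAA library at 100 mM was below 2 libraries of 10 mM sucrose. With NAA the log2 fold change came to 4.33 (SE 0.591, edgeR adjusted p = 0.00695), and it stayed called without each single library. It was 5.12, 3.89 and 3.07 on the 3 harvest dates.

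RC2G0511100 was at 9.15, 11.4 and 3.0 CPM in 10 mM sucrose, 159, 44.3 and 21.7 CPM with NAA added, 1.54, 1.05 and 1.62 CPM in 100 mM sucrose, and 18.4, 1.99 and 2.06 CPM with NAA added. Each dose showed higher NAA libraries, and the June libraries with NAA were the highest of their groups. The log2 fold change came to 2.83 (SE 0.663, edgeR adjusted p = 0.0287), and 2.25 without the June library of 10 mM sucrose with NAA. The call was lost without any 1 of 6 libraries, and without the June library of 100 mM sucrose with NAA the value was 1.91 (adjusted p = 0.0702). With 76.8% of its 2551 forward counts in 10 mM sucrose with NAA and 593 elsewhere, it reached the limit of 1000 only through that group, so some difference was built in.

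RC5G0246400 was at 2.36, 2.60 and 14.9 CPM in 10 mM sucrose, 72.8, 61.5 and 30.2 CPM with NAA added, 3.19, 3.64 and 6.10 CPM in 100 mM sucrose, and 41.6, 15.6 and 9.19 CPM with NAA added. The October library of 10 mM sucrose overlapped the NAA libraries of 100 mM. The NAA response came to a log2 fold change of 2.69 (SE 0.516, edgeR adjusted p = 0.013), and the call held without each single library.

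RC4G0418400 was the member with the most uneven counts, with 50.6% of its forward reads in the August library of 10 mM sucrose with NAA. It was at 1.23, 1.76 and 3.0 CPM in 10 mM sucrose, 8.01, 30.1 and 9.61 CPM with NAA added, 1.21, 1.54 and 1.12 CPM in 100 mM sucrose, and 7.28, 5.45 and 2.51 CPM with NAA added. The log2 fold change came to 2.46 (SE 0.394, edgeR adjusted p = 0.00984) and stayed called without each single library. It held 321 forward counts outside 10 mM sucrose with NAA, so the limit of 1000 was reached only through that group and some difference was built in. RC7G0517600, at 5.35, 8.40 and 5.02 CPM in 10 mM sucrose and 28.8, 67.2 and 17.2 CPM with NAA added, had a log2 fold change of 2.21 (SE 0.477, edgeR adjusted p = 0.0212). At 100 mM sucrose it was at 2.75, 4.45 and 3.86 CPM, and 29.4, 6.54 and 4.05 CPM with NAA added, where the groups overlapped. The call was lost without the June or October library of either group without NAA, at adjusted p between 0.0548 and 0.0595. It held 822 of its 2389 forward counts outside 10 mM sucrose with NAA, so here too some difference was built in. At least 27.3% of the forward counts of RC7G0517600 lay on RC7G0517500, whose reverse counts changed by 2.37 with NAA (edgeR adjusted p = 0.0037). The overlap reads came to 22.9% of that partner's reverse counts, so these changes partly share reads. Whether the member's reads outside the overlap follow the partner was not tested.

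Across the 44 members that rose, the log2 fold change ranged from 0.55 to 4.33 with a median of 1.03, and 24 rose at least 2-fold. In 11 of them 1 group held over 50% of the forward counts, and 8 of the 44 and 3 of the 16 held under 1000 counts outside their highest group. Each of the 44 and of the 16 had the same sign on all 3 harvest dates. The dates split the same libraries that gave the calls, so this agreement is largely built in and is no separate test.

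The 16 members that fell with NAA changed less, with log2 fold changes from -1.76 to -0.69 and a median of -0.95. RC2G0047200 fell the most, by 1.76 (SE 0.484, edgeR adjusted p = 0.0472). It was at 7.09, 12.2 and 10.6 CPM in 10 mM sucrose, 0.364, 0.697 and 3.54 CPM with NAA added, 13.4, 13.1 and 28.5 CPM in 100 mM sucrose, and 2.50, 14.0 and 12.1 CPM with NAA added. The groups were separate at 10 mM but not at 100 mM, and leaving out any 1 of 11 of the 12 libraries ended the call (adjusted p up to 0.123). It held 927 forward counts outside its highest group, 100 mM sucrose.

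RC1G0105500 was at 30.9, 25.1 and 24 CPM in 10 mM sucrose, 17.5, 5.69 and 10.8 CPM with NAA added, 33.1, 30.7 and 27.8 CPM in 100 mM sucrose, and 15.8, 17.6 and 19.6 CPM with NAA added. All NAA libraries lay below all others, with a log2 fold change of -1.02 (SE 0.231, edgeR adjusted p = 0.0247). The call was lost without any 1 of 7 libraries, at adjusted p up to 0.0702. Its reverse column was listed at 0 in all 12 libraries.

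RC6G0099100 and RC2G0626700 fell with NAA, and their forward reads lay mostly on a gene of the other strand. RC6G0099100 was at 22.2, 15.8 and 32.9 CPM in 10 mM sucrose, 6.37, 4.76 and 11.1 CPM with NAA added, 20.7, 23.3 and 33.6 CPM in 100 mM sucrose, and 11.3, 11.3 and 19.9 CPM with NAA added. The member had a log2 fold change of -1.27 (SE 0.27, edgeR adjusted p = 0.021), and the reverse counts of the gene it overlaps, RC6G0099000, changed by -1.05 (adjusted p = 0.0203). Without the October library of either group without NAA, or the June library of 100 mM sucrose with NAA, the adjusted p was 0.0561 to 0.0597. At least 65.9% of the member's forward counts lay in the overlap, and the overlap reads came to 12.8% of the partner's reverse counts, so these changes share reads.

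RC2G0626700 was at 15.8, 14.9 and 20.3 CPM in 10 mM sucrose, 4.91, 4.30 and 8.99 CPM with NAA added, 13.6, 20.3 and 31.6 CPM in 100 mM sucrose, and 10.5, 11.4 and 18.2 CPM with NAA added. At least 88.3% of its forward counts lay on RC2G0626800, of whose reverse counts the overlap reads were 1.87%. The log2 fold change came to -1.09 (SE 0.26, edgeR adjusted p = 0.031), beside -0.87 (adjusted p = 0.0361) in the reverse counts of RC2G0626800. With strand ignored the overlap reads drop out, and RC2G0626700 then had a log2 fold change of 0.21. Its call was lost without any 1 of 7 libraries, at adjusted p up to 0.0884.

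At high sucrose more members fell than rose: 2 rose and 23 fell at 100 against 10 mM, averaged over NAA. That is 5.32% of the members, where 3.73% of all genes in the forward fit were called, 1.29% upward and 2.44% downward. The median log2 fold change was -0.13 over the members and 0.06 over all genes tested. Without the June library of 10 mM sucrose with NAA, 9 rose and 26 fell, where 45 and 58 of 2685 tested genes did. The members' median was then -0.014. The 23 ranged from -3.29 to -0.67 with a median of -1.15, 16 fell at least 2-fold, and in 6 of them 1 group held over 50% of the counts. Outside their highest group, 2 of the 23 held under 1000 counts.

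RC2G0454500 fell the most with sucrose as well, by 3.29 on the log2 scale (SE 0.57, edgeR adjusted p = 0.0137), from the levels given above. RC4G0243300 was at 165, 214 and 46.3 CPM in 10 mM sucrose, 935, 319.6 and 190.0 CPM with NAA added, 14.3, 19.6 and 13.1 CPM in 100 mM sucrose, and 126, 36.9 and 37.9 CPM with NAA added. At each NAA state the 10 mM libraries were above the 100 mM ones. With sucrose the log2 fold change came to -3.01 (SE 0.503, edgeR adjusted p = 0.0119), and -2.55 without the June library of 10 mM sucrose with NAA.

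RC6G0584000 was at 134, 183 and 71.2 CPM in 10 mM sucrose, 673, 345 and 273 CPM with NAA added, 24.8, 42.0 and 48.9 CPM in 100 mM sucrose, and 172, 92.7 and 97.7 CPM with NAA added. The order of the groups matched that in RC4G0243300, with a log2 fold change of -1.79 (SE 0.318, edgeR adjusted p = 0.0137). The sucrose calls of RC2G0454500, RC4G0243300 and RC6G0584000 held without each single library. RC2G0511100 had -2.92 (SE 0.665, adjusted p = 0.0288) and was lost without any 1 of 7 libraries, and the caution on its counts holds here as well.

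RC4G0270500 was at 72.7, 40.2 and 19.8 CPM in 10 mM sucrose, 148, 46.7 and 52.5 CPM with NAA added, 15.7, 6.64 and 8.09 CPM in 100 mM sucrose, and 33.4, 11.5 and 14.0 CPM with NAA added. Its log2 fold change with sucrose was -2.10 (SE 0.427, edgeR adjusted p = 0.0193). The call was lost without any 1 of 4 libraries, the August library of 10 mM sucrose, the August or October library of 100 mM sucrose, or the October library of 100 mM sucrose with NAA, at adjusted p between 0.0527 and 0.0671.

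The members that rose with sucrose were RC1G0431600 and RC1G0541900. RC1G0431600 was at 52.1, 52.0 and 59.0 CPM in 10 mM sucrose, 38.2, 24.1 and 42.7 CPM with NAA added, 92.0, 61.0 and 68.1 CPM in 100 mM sucrose, and 72.2, 72.4 and 77.4 CPM with NAA added. All 6 libraries of 100 mM lay above all 6 of 10 mM. Its sucrose response came to a log2 fold change of 0.76 (SE 0.183, edgeR adjusted p = 0.0375) and leaving out any 1 of 10 of the 12 libraries ended the call, as did dropping the filter on low counts (adjusted p = 0.139). RC1G0541900, a mixed member with 1115 forward and 657 reverse counts, had 0.91 (SE 0.21, adjusted p = 0.0292) and was lost without any 1 of 8 libraries. It was also lost without the filter on low counts (edgeR adjusted p = 0.092), and with strand ignored it was 0.28 (adjusted p = 0.394). It held 772 forward counts outside its highest group, 100 mM sucrose.

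Single libraries decided many sucrose calls too. Leaving out the June, August or October library of 10 mM sucrose left 8, 5 or 26 called members, and of 10 mM sucrose with NAA 35, 23 or 36. For 100 mM sucrose the numbers were 6, 5 or 7, and for 100 mM sucrose with NAA 23, 10 or 6. Over all tested genes these fits called between 15 and 104. With harvest date as a block 18 rose and 46 fell, where 7.5% of all tested genes were called, 2.75% upward and 4.75% downward, and the 25 remained called.

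**Figure D4:**
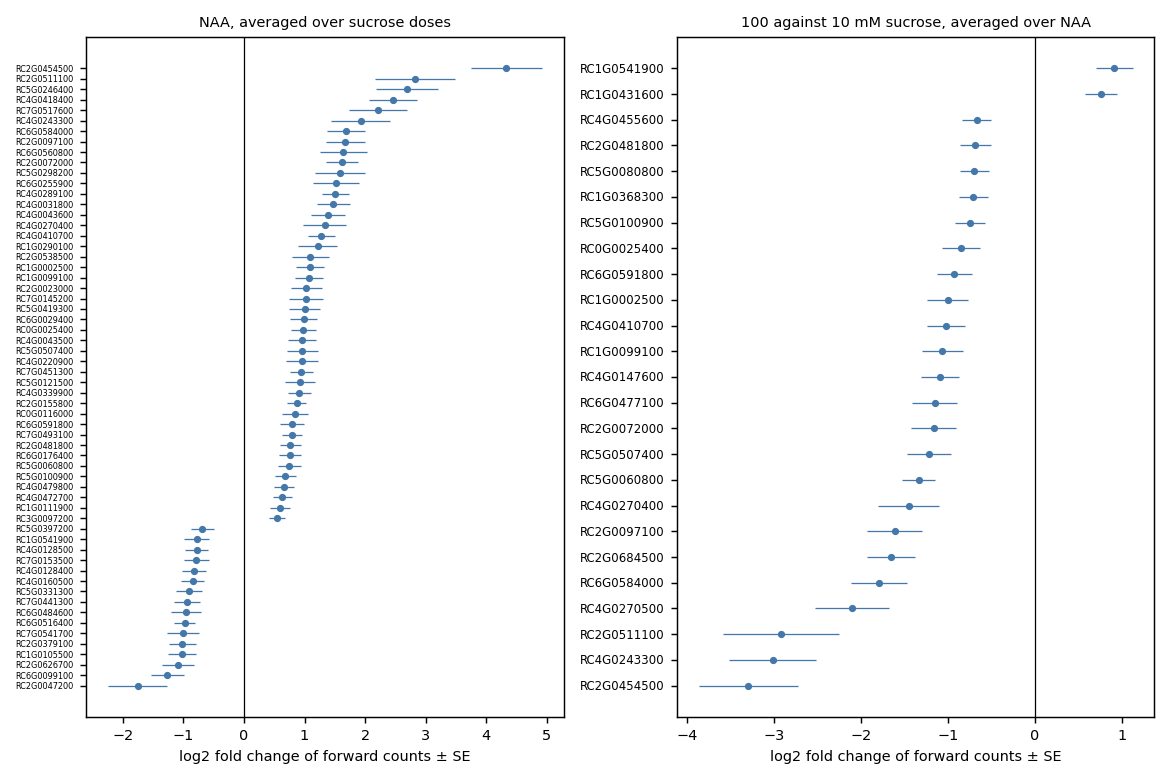
Log2 fold changes of forward counts (points) with their SE (bars) from the edgeR fit for the 60 members called with NAA, on the left, and the 25 called with 100 against 10 mM sucrose, on the right. With NAA 44 lie right of 0 and 16 left of it, while with sucrose 2 lie right of 0 and 23 left, and RC2G0454500 is at the end of both panels.

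Across both factors, 68 members were called for NAA or sucrose and 402 for neither. Over all genes tested, 6.84% were called for NAA and 3.73% for sucrose. The share of all tested genes called for either was not counted, so the 68 have no matching background. The contrasts use the same 12 libraries, so values are set side by side only. RC2G0454500 had 4.33 with NAA and -3.29 with sucrose, RC4G0243300 had 1.93 and -3.01, and RC6G0584000 had 1.69 and -1.79 on the log2 scale. RC1G0541900 had -0.78 and 0.91. No member passed the edgeR test of whether the NAA effect differed between sucrose doses, which called 0.0% of all genes tested. At an unadjusted p under 0.05 it held 15 members, among 102 of the 2252 genes tested. DESeq2 also called 0, with 19 members among 113 genes at that limit.

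The members varied widely in how much they moved over the 12 libraries. The ratio of the highest to the lowest library had a median of 2.94, was under 2 in 111 members and over 10 in 40. No member was at 0 in any library. The coefficient of variation had a median of 0.326.

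Members next to each other in the ID order did not always move alike. There were 14 such pairs. RC4G0128400 and RC4G0128500 both fell with NAA, by 0.82 (edgeR adjusted p = 0.0347) and 0.78 (adjusted p = 0.0372) on the log2 scale. RC4G0270400 and RC4G0270500 both fell with sucrose, by 1.45 (adjusted p = 0.0383) and 2.10. RC2G0511100 rose with NAA, and RC2G0511200 had a log2 fold change of -0.32 that did not pass (adjusted p = 0.296). RC7G0451300 rose by 0.94 (adjusted p = 0.0177), and RC7G0451400 had -0.10 (adjusted p = 0.839). Differences within pairs were not tested.

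The reverse counts that would normally stand for these genes were too few to test in most. Only 61 of the 470 members passed the filter in the reverse column, where 24267 genes were tested. Of the 61, 5 rose and 3 fell with NAA, where 24.7% of all tested genes were called, 12.2% upward and 12.5% downward. With sucrose 3 rose and 2 fell, where 11.8% were called, 4.92% upward and 6.91% downward. With harvest date as a block the members called were 14 and 8, where 34.0% and 20.4% of all tested genes were. Leaving out the June, August or October library of 10 mM sucrose left 4, 7 or 6 for NAA and 1, 1 or 3 for sucrose, and of 10 mM sucrose with NAA 9, 7 or 14 and 3, 3 or 7. For 100 mM sucrose these were 6, 5 or 4 and 1, 1 or 2, and for 100 mM sucrose with NAA 8, 5 or 9 and 5, 2 or 1. Over the 24344 to 25001 genes tested, these fits called 4044 to 6856 for NAA and 1480 to 3534 for sucrose. RC4G0410700 was called on both strands with NAA. Forward levels of RC4G0410700 were 186, 252 and 174 CPM in 10 mM sucrose, 581, 696 and 355 CPM with NAA added, 119, 111 and 103 CPM in 100 mM sucrose, and 236, 311 and 183 CPM with NAA added. Its reverse levels were between 0.124 and 2.56 CPM, from 117 reverse counts beside 42162 forward, or 99.72% forward. Whether the few reverse reads of these members come from incomplete strand marking of their forward reads was not tested. The log2 fold changes of RC4G0410700 were 1.28 (SE 0.221, edgeR adjusted p = 0.00984) forward and 1.44 (SE 0.366, adjusted p = 0.015) reverse, and the difference between them did not pass (-0.17, SE 0.43, adjusted p = 0.997).

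With strand ignored, the reads of both columns enter and the members are counted whole, apart from overlaps. Then 85 members rose and 39 fell with NAA, together 26.4%, where 23.9% of all 25430 tested genes were called, 11.9% upward and 12.0% downward. With sucrose 10 rose and 45 fell, together 11.7%, where 11.4% were called, 4.7% upward and 6.66% downward. The shares of members called were close to the shares over all genes.

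For 61 members the forward counts could be set against the reverse counts of the same gene in the same libraries. Their NAA responses differed between strands in 5, or 8.20%, where 5.17% of the 1102 genes tested were called. The forward response was the higher one in 1 and the lower one in 4, where 2.18% and 2.99% of all tested were. Their sucrose responses differed in 3, or 4.92%, where 3.9% were called, with the forward response higher in 2 and lower in 1, where 2.18% and 1.72% were. With harvest date as a block 6 and 4 members were called, where 7.99% and 5.35% of the tested genes were. The reverse counts behind these are low, from 122 to 657 over the 12 libraries. The NAA count was 3 without the June library of 100 mM sucrose with NAA and 4 to 7 without any other. The sucrose count was 1 without the June or August library of 10 mM sucrose, the August library of 100 mM sucrose or the August library of 100 mM sucrose with NAA, and 2 or 3 otherwise. Over the 1169 to 1493 genes tested, these fits called 27 to 69 for NAA and 20 to 51 for sucrose.

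RC5G0172200 changed on its reverse strand. Its forward levels were 8.95, 8.01 and 7.16 CPM in 10 mM sucrose, 13.8, 13 and 10.6 CPM with NAA added, 7.14, 9.14 and 11.3 CPM in 100 mM sucrose, and 10.1, 9.43 and 7.77 CPM with NAA added. Its reverse levels were 3.50, 4.17 and 4.22 CPM, then 2.00, 1.16 and 1.84 CPM with NAA added, and 4.94, 4.61 and 5.60 CPM in 100 mM sucrose, then 0.416, 1.92 and 2.96 CPM with NAA added. All 6 NAA libraries were below the 6 others in the reverse column. The reverse counts fell by 1.37 on the log2 scale (SE 0.308, edgeR adjusted p = 0.00879), the forward counts had 0.31 (adjusted p = 0.312), and the difference was 1.75 (SE 0.372, adjusted p = 0.00418).

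RC2G0379100 was at 26.6, 25.7 and 32.1 forward CPM in 10 mM sucrose, 8.55, 6.91 and 14.3 CPM with NAA added, 34.4, 29.7 and 31.1 CPM in 100 mM sucrose, and 17.3, 17.6 and 31.0 CPM with NAA added. Its forward counts fell by 1.01 with NAA (SE 0.219, edgeR adjusted p = 0.0212), a call lost without any 1 of 5 libraries. Its reverse counts, at 0.324 to 1.82 CPM, had a log2 fold change of 0.95 that missed the threshold (SE 0.33, adjusted p = 0.0544) and 0.90 with harvest date as a block, which passed (adjusted p = 0.0377). The strands differed by -1.93 with NAA (SE 0.36, edgeR adjusted p = 0.00146) and by 1.48 with sucrose (SE 0.361, adjusted p = 0.0169). The sucrose difference was lost without any 1 of 5 libraries, at adjusted p up to 0.0775, and without the filter on low counts (adjusted p = 0.747).

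RC5G0042600 was at 36.7, 27.1 and 46.9 forward CPM in 10 mM sucrose, 36.4, 9.53 and 17.7 CPM with NAA added, 43.0, 54.4 and 95.6 CPM in 100 mM sucrose, and 21.9, 15.3 and 38.5 CPM with NAA added. In the fit without a block neither column passed alone: the forward log2 fold change with NAA was -1.08 (edgeR adjusted p = 0.0795) and the reverse one 0.67 (adjusted p = 0.101). With harvest date as a block the forward value was -1.14 and passed (edgeR adjusted p = 0.0233). The difference between them was -1.81 (SE 0.351, edgeR adjusted p = 0.00158).

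In RC2G0626700, whose forward reads lay on its partner, the strands differed by -2.39 with NAA (SE 0.533, edgeR adjusted p = 0.00619) and by 2.36 with sucrose (SE 0.526, adjusted p = 0.00732). Without the June library of 100 mM sucrose with NAA the NAA difference was -1.82 (adjusted p = 0.0918). RC1G0541900 differed by -1.27 with NAA (SE 0.303, adjusted p = 0.00932), and this was lost without the August library of 10 mM sucrose with NAA or the June library of 100 mM sucrose with NAA (edgeR adjusted p = 0.0533 and 0.0564) and without the filter on low counts (adjusted p = 0.142). RC7G0392800, with at least 88.0% of its forward reads on RC7G0392900, differed by -1.83 with sucrose (SE 0.466, adjusted p = 0.0229) and was lost without any 1 of 7 libraries and without the filter on low counts (edgeR adjusted p = 0.0501). For these 3 the forward column largely or partly counts another listed gene.

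**Figure D5:**
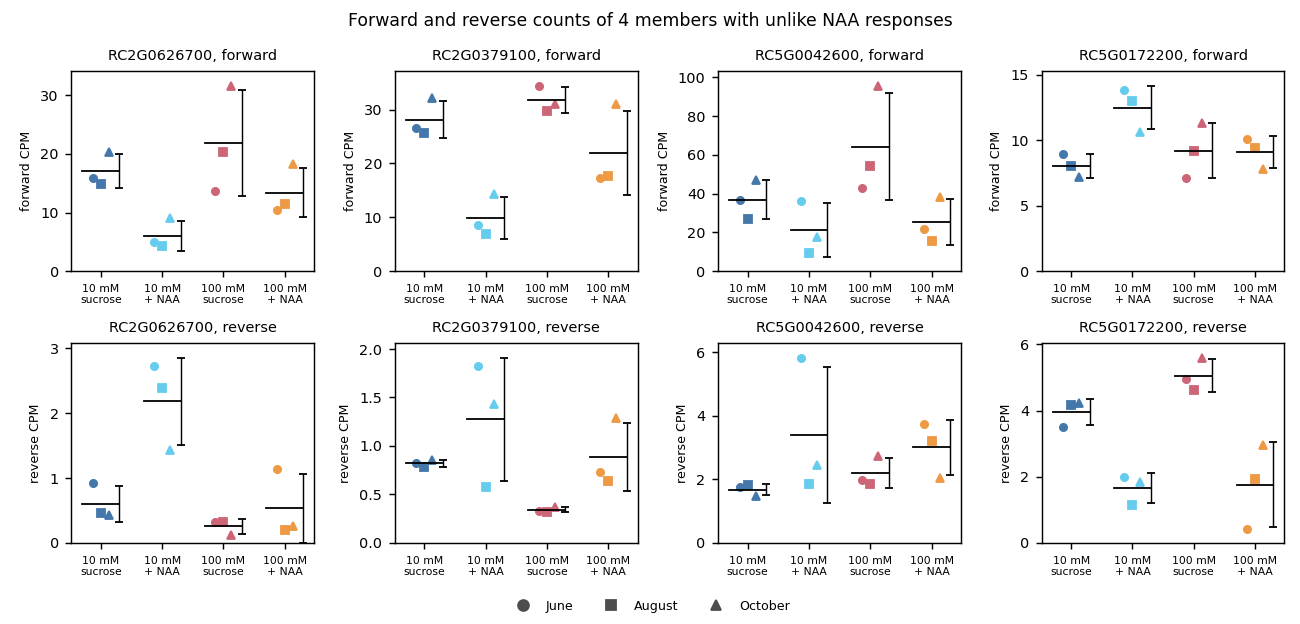
Forward (top) and reverse (bottom) levels in CPM of 4 members whose NAA response differed between strands, in each of the 12 libraries, with marker shapes for harvest date, lines for group means and bars for ± 1 SD (n = 3). RC2G0626700, RC2G0379100 and RC5G0042600 have lower group means with NAA forward and higher ones in reverse, while in RC5G0172200 the reverse counts fall with NAA.

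The 20 mixed members, with under 90% forward counts, carried substantial reads on both strands. RC3G0198800 had the most reverse counts of any member, 8939 beside 11841 forward, with 2 overlap reads. Its forward levels were 78.8 ± 4.75, 97.9 ± 22.5, 69.1 ± 7.17 and 77.5 ± 3.60 CPM in 10 mM sucrose, 10 mM with NAA, 100 mM and 100 mM with NAA (SD, n = 3 each). The reverse levels were 58.3 ± 5.37, 60.7 ± 3.53, 59.0 ± 5.41 and 59.3 ± 5.51 CPM in the same order. No contrast passed on either strand. The reverse log2 fold changes were 0.03 with NAA (SE 0.0918, edgeR adjusted p = 0.826) and -0.01 with sucrose (adjusted p = 0.967).

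RC2G0225800 had 20566 forward and 6218 reverse counts and no overlap reads. Its forward levels ran from 91.5 to 191 CPM and its reverse levels from 34.0 to 51.3 CPM, with no call on either strand. RC5G0280700 had 14671 and 2274 counts. It was at 82.1 ± 9.39 forward CPM in 10 mM sucrose, 141 ± 23.2 with NAA added, 70.3 ± 22.8 in 100 mM sucrose and 99.7 ± 7.25 with NAA added (SD, n = 3 each). The log2 fold change with NAA was 0.64 (SE 0.187) and missed the threshold (edgeR adjusted p = 0.0585), and with harvest date as a block it was 0.65 and passed (adjusted p = 0.043).

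RC4G0340300, the member nearest to equal strands, was at 22.4 ± 0.586, 24.1 ± 5.47, 22.9 ± 1.20 and 22.9 ± 2.01 forward CPM in the same order of groups (SD, n = 3 each). In the reverse column it was at 20.9 ± 1.42, 14.0 ± 4.44, 30.1 ± 5.14 and 21.6 ± 4.23 CPM. The reverse counts fell by 0.53 with NAA (edgeR adjusted p = 0.0355) and rose by 0.58 with sucrose (adjusted p = 0.0421), and the forward counts had 0.05 and -0.02 and did not pass. The test of the difference between strands did not pass in this gene, so the responses are not shown to differ.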

How the data were processed

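Messenger RNA of 12 bud libraries was sequenced after polyA selection, paired-end, with a stranded TruSeq kit from 1 µg of RNA, per the labels' protocols. The authors deposited raw whole-number counts per gene, not normalised, in 3 columns per library, for strand ignored, the forward strand and the reverse strand, per the file headers. TopHat2 and Bowtie2 are named in the submitters' processing notes without version or role; the layout of the tables is one the STAR aligner writes. Which settings, build and gene models were applied is not given in the sources used here. Rows that name no gene were left out; in the reverse column their share was 17.3% to 23.2% of a library.

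The main tests used edgeR 4.0.16 in R 4.3.3, with DESeq2 1.42.0 as an alternative. Genes were kept by filterByExpr on the column tested (minimum count 10, minimum total 15). Library sizes and TMM factors came from the reverse column in the main fits. Alternatives took DESeq2 size factors from that column, or TMM sizes from the forward column for the forward counts. Quasi-likelihood models had 1 mean per group over all 12 libraries. Forward and reverse counts were compared in 1 model with library, strand and strand-by-group terms. A gene was called at an adjusted p under 0.05 (Benjamini-Hochberg, over all genes tested). Biological coefficients of variation were 0.382 forward and 0.244 reverse. The models were also run on simulated counts, drawn independently per library at the fitted spread, with no harvest-date effect or outlying library. Such runs cannot show how the calls behave where those features are present. At these depths, counting error is small for the heavily read members, and the spread between libraries sets the precision.

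The members, lists and tests were chosen with earlier results of these data known. Named genes were the 10 members with most forward counts, up to 5 called members with the largest rise and fall per contrast, those called between strands, those nearest the limits, and their overlap partners; others are named as examples chosen after their values were seen, among them neighbouring pairs and mixed members. Sample titles number 3 libraries per group, which was followed, although the series' design text gives 2 biological replicates. Nothing says that libraries of a group came from separate plants, so p-values measure the spread between these libraries only. The labels tie each replicate number to a harvest date; members' deviations from group means correlated by 0.331 on average over 18 same-date pairs (-0.185 to 0.719) and by -0.164 over 36 others, across genes.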

Additional observations from a re-analysis of the deposited data

How the results depend on the processing

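Depth limits the reverse counts of most members, and the count of called members moved with many choices, whose causes were not tested. Called members numbered 60 for NAA in the main setting, 109 with the replicate block by harvest date, 101 with DESeq2 and 124 with strand ignored, and 11 to 76 when 1 library was left out. Over all tested genes these were 154, 255 and 239 of 2252, 6090 of 25430, and 34 to 193 of 2335 to 2718. For sucrose the 25 became 64 with the replicate block, 40 without the filter on low counts, 49 with DESeq2 and 55 with strand ignored, and 5 to 36 with 1 library left out. Over all tested genes the 84 became 169, 130 of 23687, 141, 2889 of 25430, and 15 to 104. Leaving out all June, August or October libraries left 4, 0 and 26 for NAA and 19, 0 and 9 for sucrose. Over all tested genes, 10 of 2510, 0 of 1872 and 56 of 1995 were called for NAA, and 57, 0 and 30 for sucrose. This alternative was chosen after seeing the data, like the strand-ignored counts. At an unadjusted p under 0.05 the fits without August held 102 and 52 members, among 260 and 177 of the 1872 genes. The interaction was called in 7 members without the filter, among 17 of 23687 genes tested, and in 0 otherwise. In the reverse column, the 8 for NAA became 14 with the replicate block, 5 among members with at least 2000 forward counts and 4 to 14 with 1 library left out, and the 5 for sucrose became 8 with the block and 1 to 7. Between strands, the 5 for NAA became 3 among members with at least 2000 forward counts and 3 to 7 with 1 library left out, and the 3 for sucrose became 1 without the filter and 1 to 3. The rule gave 310 members at a limit of 2000 counts and 431 to 458 with 1 library left out at unchanged limits, and 6 instead of 18 members lay mostly in overlaps at a limit of 80%.

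Of the named genes' values, those that changed sign were uncalled under the alternative that turned them. With 1 library or 1 harvest date left out, RC2G0517200 ranged from -0.080 to 0.42 for NAA and from -0.37 to 0.071 for sucrose. For sucrose RC4G0043300 ranged from -0.30 to 0.0058 and RC4G0043500 from -0.33 to 0.005. RC6G0206700 ranged from -0.71 to 0.21 for NAA and from -0.30 to 0.57 for sucrose, and for sucrose it was 0.10 with the replicate block and 0.044 with sizes from the forward column. RC2G0210100 ranged from -0.088 to 0.79 for NAA, and RC2G0626700 had 0.21 with strand ignored. The replicate block ended no call of a member named in the text. Beside the calls given with their genes it added those of RC4G0270500 (0.87) and RC5G0109500 (-0.97) for NAA, and of RC2G0047200 (1.75), RC2G0379100 (0.67), RC2G0626700 (0.73) and RC6G0099100 (0.57) for sucrose. In the reverse column it added RC1G0541900 (0.51), RC2G0626700 (1.36), RC4G0043300 (0.78) and RC4G0480900 (-0.62) for NAA and RC7G0392800 (1.44) for sucrose. RC2G0210100 was called for sucrose without the filter on low counts (-1.04).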

Other observations

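When strand is taken into account, reads that had counted for a gene with strand ignored can fall outside any feature. The members' forward reads outside overlaps came to between 82.9% and 88.8% of the reads that the reverse column, compared with the strand-ignored column, added to the unassigned reads of a library. The 41 genes with at least 1000 forward counts and more reverse counts lay outside overlaps in the same way, with 0% to 2.25% of their forward counts inside. By the first letters of their IDs, members made up between 0.939% and 1.354% of the genes, with 76 among the IDs that begin with RC2G and 76 among those that begin with RC5G.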
